A study of Mus musculus with 26 samples.

Results

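The interleukin-6 family is a group of secreted cytokines that act through the shared receptor chain gp130, the product of Il6st. This account follows 8 of its genes, out of 20430 gene symbols in the RNA tables and 19941 in the footprint tables: the ligands Lif, Il6, Il11 and Clcf1, the receptor chains Lifr, Osmr and Il6st, and Socs3, a feedback inhibitor. All 8 were found by symbol in both kinds of table and are protein-coding genes in RefSeq. On GRCm38.p6 the ligand genes lie at chr11:4257568-4272514 (Lif), chr5:30013114-30019975 (Il6), chr7:4772373-4782907 (Il11) and chr19:4214238-4223505 (Clcf1). The receptor genes lie at chr15:7090610-7197489 (Lifr), chr15:6813568-6874968 (Osmr) and chr13:112464070-112506860 (Il6st), and Socs3 lies at chr11:117966079-117970336. They were chosen by name after the RNA level of Lif at 2 h of H2O2 was known to be high, so every value that compares the 2 h H2O2 group with another group is given for these 8 genes as a description, without a test.

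Each ligand binds receptor chains at the cell surface. Lif binds Lifr together with gp130, and Il6, Il11 and Clcf1 also bind further chains. Osmr pairs with gp130 in the receptor for oncostatin M. The receptors carry JAK kinases that phosphorylate STAT3, which enters the nucleus and switches on target genes, Socs3 among them, whose product in turn binds gp130 and the kinases and damps the signal. Fibroblasts are a known source of Il6, Lif and Il11, and these ligands are known for their part in inflammation, stem cell maintenance and fibrosis.

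The cells were NIH3T3, an established mouse line of embryonic fibroblasts, so all groups share a single cell line. Polyadenylated RNA was sequenced in 8 groups of 2 libraries: a heat control, 44 °C for 2 h, 42 °C for 8 h, a control shared by H2O2 and KCl, H2O2 (oxidative stress) for 2 h and 7 h, and KCl (osmotic stress) for 2 h and 7 h. Ribosome footprints, the stretches of mRNA covered by ribosomes, were sequenced in the 5 groups of the H2O2/KCl experiment, again with 2 libraries each. The sources used here do not state the doses of H2O2 and KCl. RNA libraries held 24441877 to 45244430 expected counts (estimated reads per gene, summed) and footprint libraries 1460751 to 5168537, with both the lowest and the highest footprint total in the 2 h H2O2 group. The labels do not say whether the 2 replicates of a group came from separate cultures, so p-values measure the spread between these libraries, which may be technical.

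All 6 fibroblast markers (Col1a1, Col1a2, Vim, Fn1, Pdgfrb, S100a4) were expressed, with a summed level of 4072 to 10510.1 TPM (RNA scaled to gene length and library size, a level per length). The lowest sums were 4072 and 4075 TPM in the 2 libraries of 7 h H2O2. Of the 4 macrophage markers, Ptprc and Adgre1 stayed below 1 TPM in every library, but the summed level was 56.1 to 61.4 TPM at 7 h H2O2 and 30.7 to 30.8 TPM at 7 h KCl, against 8.74 to 10.6 TPM in their control, with Cd14 the highest at 61.2 TPM. Cd14 thus made up nearly all of the highest sum, which does not stand for the macrophage markers as a set. Lymphocyte markers summed to at most 0.12 TPM, endothelial markers to 3.18 TPM and epithelial markers to 2.81 TPM. In bulk RNA, fewer cells of a kind and less RNA per cell cannot be told apart.

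Promoter sequences were read from RefSeq (build GRCm38.p6) for 7 of the 8 genes, all but Clcf1, as the 250 bases before each annotated start. The 2 shown in full belong to Lif and Il6, the ligands with the 2 highest RNA fold changes at 2 h of H2O2. Il11, shown in part below, was picked by the same values, so any matches in these promoters are a description without a test. Capitals mark matches, on either strand, to AP-1 (TGANTCA), the core of the antioxidant response element (TGACNNNGC) and an NF-kB core (GGNNTTTCC), and the sequences run 5′ to 3′ on the plus strand, from chr11:4257318-4257567 for Lif and chr5:30012864-30013113 for Il6.

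Lif: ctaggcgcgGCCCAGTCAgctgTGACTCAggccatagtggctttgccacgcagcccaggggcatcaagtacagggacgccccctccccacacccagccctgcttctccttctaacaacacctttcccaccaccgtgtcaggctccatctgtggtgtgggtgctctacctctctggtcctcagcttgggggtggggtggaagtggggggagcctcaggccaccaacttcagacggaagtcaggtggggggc

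Il6: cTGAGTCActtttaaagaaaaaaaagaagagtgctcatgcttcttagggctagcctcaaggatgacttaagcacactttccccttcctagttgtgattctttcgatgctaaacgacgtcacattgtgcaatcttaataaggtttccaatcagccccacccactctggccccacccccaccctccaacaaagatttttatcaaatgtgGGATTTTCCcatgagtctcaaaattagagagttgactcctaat

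An AP-1 match lay 228 to 222 bases before the start of Lif and 249 to 243 bases before that of Il6. Il11, the third of these ligands, had an AP-1 match 98 to 92 bases before 1 of its 2 annotated starts, and Socs3 had a match to the STAT motif (TTCNNNGAA) 154 to 146 bases before its start. Both are shown with the bases around them, read on the minus strand, where both genes lie.

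Il11: aggagggagggTGAGTCAggatgtgtcag

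Socs3: gaaaccagccTTCTTAGAAgggagggggg

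The Il11 window spans chr7:4778142-4778391 and the Socs3 window chr11:117969367-117969616. Of 32841 annotated promoters of that length, 6.75% held an AP-1 match and 7.02% a STAT match, while 10.2% held the antioxidant response element core and 4.93% the NF-kB core. In Lif the 2 matches did not overlap, with the antioxidant response element core at 241 to 233 bases before the start, and in Il6 the NF-kB core lay 43 to 35 bases before it. Lifr had a match to the antioxidant response element core, and Il6st a match to a heat shock element core (GAANNTTC), which 6.70% of promoters held. Osmr had none of the motifs searched, which also included CRE (TGACGTCA, in 1.55% of promoters) and the CARE motif of ATF4 (TGATGNAA, in 3.45%). These are matches of letters, not measured binding sites. Their relation to the RNA levels was not tested.

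Without stress the receptor chains and Socs3 were well expressed and the ligands differed widely. In the H2O2/KCl control, mean RNA levels per length were 146 TPM for Il6st, 46.5 TPM for Osmr, 44.9 TPM for Clcf1, 35.1 TPM for Socs3, 10.3 TPM for Lifr and 8.26 TPM for Lif. Il11 at 0.765 TPM and Il6 at 0.205 TPM were close to the limit of detection, with 3 and 5 expected counts of Il6 in the 2 control libraries. The heat control gave the same order at the top and the bottom, with 200.8 TPM for Il6st and 0.10 TPM for Il6. Across all 16 RNA libraries the highest TPM of Lif was 531 and that of Il6 2.27, both at 2 h of H2O2.

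**Figure D1:**
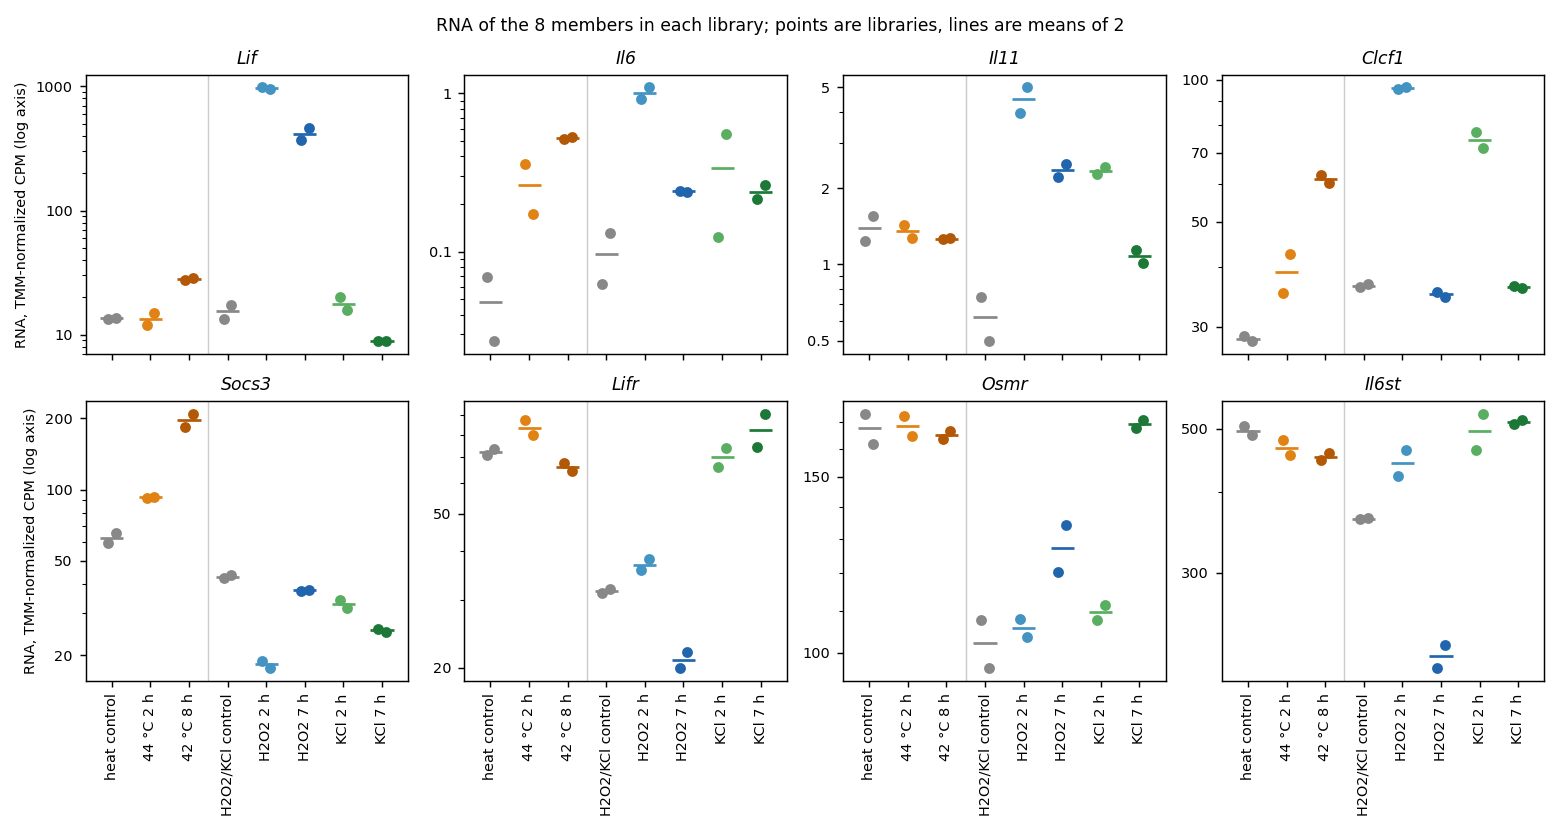
RNA of the 8 genes as TMM-normalized CPM (log axis) in each of the 16 libraries, by group, with the heat experiment left and the H2O2/KCl experiment right of the grey line. Points are libraries and short lines are means of 2. Lif stands at 368 to 985 CPM in the 4 H2O2 libraries and at 8.82 to 28.7 CPM in the other 12.

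Lif, the leukemia inhibitory factor that keeps mouse embryonic stem cells undifferentiated, had the largest RNA range of the 8 genes. In CPM, counts scaled to the TMM-normalized library size, its 2 control libraries held 13.3 and 17.4 CPM, the 2 h H2O2 libraries 985 and 953 CPM, and the 7 h H2O2 libraries 368 and 460 CPM. All 4 H2O2 libraries therefore lay far above both controls, and the 7 h libraries below the 2 h libraries. The fitted fold was 63.3 at 2 h (log2 fold change 5.98, SE 0.14, no test) and 27.1 at 7 h (log2 fold change 4.76, SE 0.14, adjusted p = 1.09e-12 in the edgeR quasi-likelihood test). As Lif was brought forward for its level at 2 h in the same experiment, the 7 h value is not independent support for it.

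Under KCl, Lif RNA was called lower at 7 h and was not called at 2 h. The 2 h KCl libraries held 19.9 and 15.7 CPM, overlapping the controls (log2 fold change 0.22, SE 0.14, adjusted p = 0.225). At 7 h of KCl both libraries, at 8.82 and 8.96 CPM, were below both controls, and Lif fell by 0.78 on the log2 scale (SE 0.16, adjusted p = 0.00051). Without the second control library the 2 h value became 0.41 and passed the threshold (adjusted p = 0.0465).

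Under heat, Lif rose at 42 °C for 8 h but not at 44 °C for 2 h. Libraries of the heat control held 13.3 and 13.7 CPM, those of 44 °C 11.8 and 15.03 CPM and those of 42 °C 27.7 and 28.7 CPM. The 42 °C libraries were above all 4 others (log2 fold change 1.06, SE 0.09, adjusted p = 1.59e-07), while 44 °C enclosed the control range (log2 fold change -0.01, SE 0.09, adjusted p = 0.914). Compared directly, 42 °C for 8 h was higher than 44 °C for 2 h by 1.07 on the log2 scale (SE 0.09, adjusted p = 6.79e-08).

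Il6, the founding cytokine of the family and a driver of the acute phase response, stayed at low levels throughout. At most 37 expected counts were seen in a library, in the 2 h H2O2 group, and in the H2O2/KCl experiment the gene passed the filter on low counts through that group, so its tests in the other groups are no support of their own either. Its 2 h H2O2 libraries held 0.920 and 1.09 CPM against 0.062 and 0.131 CPM in the controls (log2 fold change 3.39, SE 0.51, no test). By 7 h of H2O2 both libraries held 0.24 CPM (log2 fold change 1.34, SE 0.70, adjusted p = 0.105), and at 7 h of KCl they held 0.214 and 0.265 CPM (log2 fold change 1.32, SE 0.73, adjusted p = 0.125).

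At 2 h of KCl the 2 libraries of Il6 differed, at 0.123 and 0.556 CPM, and the lower of them lay within the control range. The call there (log2 fold change 1.84, SE 0.67, adjusted p = 0.0321) was lost without the higher library (0.40, adjusted p = 0.776), without the lower control library (1.36, adjusted p = 0.192) and with DESeq2 (adjusted p = 0.0569). Heat gave higher counts in all 4 libraries, with 0.356 and 0.174 CPM at 44 °C and 0.515 and 0.529 CPM at 42 °C against 0.069 and 0.027 CPM in the heat control. In the heat fit Il6 passed the filter on low counts through the 42 °C group, with 18 and 15 expected counts there against 3 and 1 in the control, so its tests are no support of their own. The value at 42 °C was 3.30 on the log2 scale (SE 0.59, adjusted p = 0.00022). At 44 °C it was 2.35 (SE 0.67, adjusted p = 0.0060), and this call was lost without the first 44 °C library (1.74, adjusted p = 0.112) or without the second control library (1.90, adjusted p = 0.0518).

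Il11, a ligand known from fibroblast activation and fibrosis, was low in controls and higher under both H2O2 and KCl. Control libraries held 0.745 and 0.498 CPM, 2 h H2O2 libraries 3.96 and 4.996 CPM and 7 h H2O2 libraries 2.21 and 2.49 CPM. The KCl libraries held 2.26 and 2.42 CPM at 2 h and 1.14 and 1.02 CPM at 7 h. All 8 stressed libraries lay above both controls, the 2 h H2O2 libraries highest. The log2 fold change was 2.82 at 2 h of H2O2 (SE 0.21, no test), 1.88 at 7 h of H2O2 (SE 0.23, adjusted p = 5.30e-06) and 1.88 at 2 h of KCl (SE 0.24, adjusted p = 1.41e-05).

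After 7 h of KCl the rise of Il11 was 0.77 (SE 0.28, adjusted p = 0.0236), a call lost with DESeq2 (adjusted p = 0.0547), without the second control library (0.54, adjusted p = 0.136) and without the first 7 h KCl library (0.68, adjusted p = 0.139). From 2 h to 7 h of KCl Il11 fell by 1.11 (SE 0.24, adjusted p = 0.00096). Heat gave 1.26 to 1.42 CPM, inside the 1.24 to 1.55 CPM of its control, and neither heat contrast passed the threshold (adjusted p = 0.889 and 0.622).

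Clcf1, the cardiotrophin-like cytokine that signals through the CNTF receptor, was high at 2 h of both agents and near its control values at 7 h. Controls held 36.3 and 37.0 CPM, while 2 h H2O2 libraries held 95.5 and 96.3 CPM and 2 h KCl libraries 77.5 and 71.5 CPM. At 7 h the libraries held 35.6 and 34.7 CPM under H2O2 and 36.6 and 36.2 CPM under KCl, next to or just under the controls. The rise was 1.39 at 2 h of H2O2 (SE 0.06, no test) and 1.02 at 2 h of KCl (SE 0.06, adjusted p = 7.89e-09). Neither 7 h contrast passed the threshold, with log2 fold changes of -0.06 under H2O2 (adjusted p = 0.411) and -0.0084 under KCl (adjusted p = 0.920).

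Heat raised Clcf1 in both groups. Control libraries held 28.6 and 27.9 CPM, 44 °C libraries 35.4 and 42.7 CPM and 42 °C libraries 62.8 and 60.4 CPM, with no overlap between the 3 groups. Log2 fold changes were 0.47 at 44 °C (SE 0.08, adjusted p = 7.01e-05) and 1.12 at 42 °C (SE 0.07, adjusted p = 1.52e-08), and 42 °C exceeded 44 °C by 0.66 (SE 0.07, adjusted p = 1.12e-06).

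**Figure D2:**
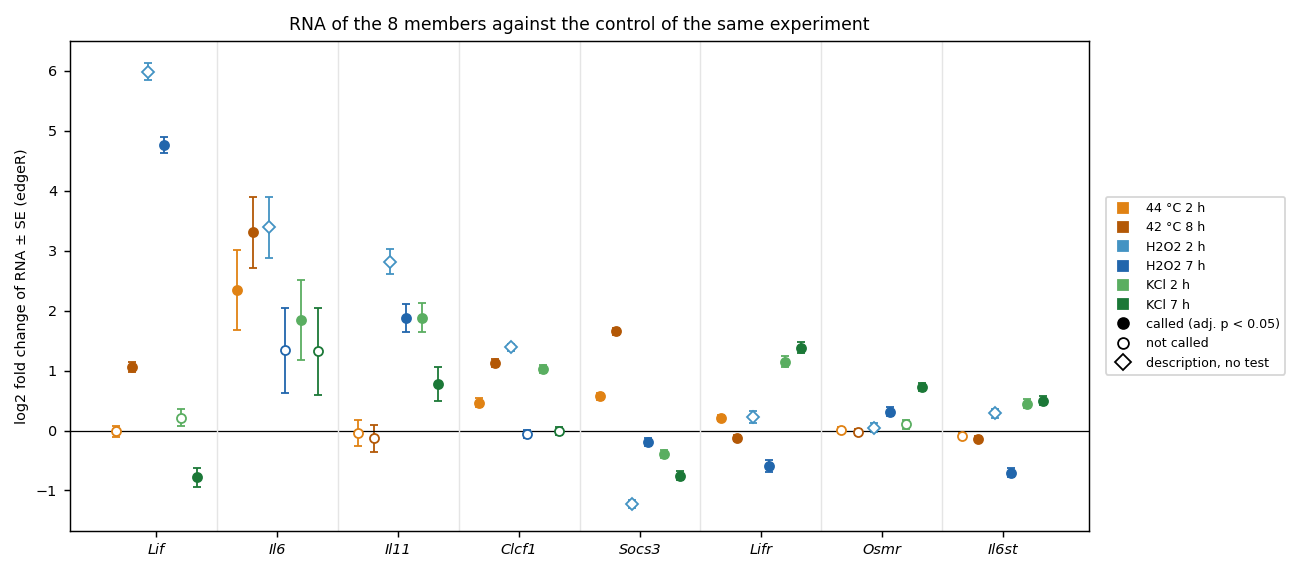
Log2 fold change of RNA with its standard error (edgeR) for the 8 genes in each stress group against the control of its experiment. Filled circles passed an adjusted p of 0.05, open circles did not, and open diamonds mark the 2 h H2O2 values, which are descriptions. Lif at 2 h and 7 h of H2O2 (5.98 and 4.76) is the highest pair, and Socs3 is above 0 under heat and below 0 in the 4 other groups.

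Among the receptor chains, Lifr, which binds Lif and related ligands, rose under KCl and fell at 7 h of H2O2. Its libraries held 31.2 and 31.9 CPM in the control, 66.0 and 73.8 CPM at 2 h of KCl and 74.1 and 90.5 CPM at 7 h of KCl. Under H2O2 they held 35.7 and 38.1 CPM at 2 h and 19.99 and 22.0 CPM at 7 h. KCl libraries were thus above, and 7 h H2O2 libraries below, both controls. Log2 fold changes were 1.15 at 2 h of KCl (SE 0.09, adjusted p = 1.45e-07), 1.38 at 7 h of KCl (SE 0.09, adjusted p = 1.28e-08) and -0.59 at 7 h of H2O2 (SE 0.10, adjusted p = 8.72e-05), with 0.23 at 2 h of H2O2 (SE 0.09, no test).

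Heat moved Lifr by less: 71.1 and 73.4 CPM in the control, 87.0 and 79.9 CPM at 44 °C and 67.6 and 64.6 CPM at 42 °C. It rose by 0.21 at 44 °C (SE 0.05, adjusted p = 0.0018). The fall of 0.13 at 42 °C (log2 scale, SE 0.05, adjusted p = 0.0429) lost its call without any of the 4 libraries compared (log2 fold changes -0.16 to -0.09, adjusted p = 0.0671 to 0.241) and with DESeq2 (adjusted p = 0.118). With DESeq2 size factors in edgeR it also missed (adjusted p = 0.0572).

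Osmr, the oncostatin M receptor chain, differed most from its control at 7 h of KCl. There its libraries held 168 and 171 CPM against 108 and 96.5 CPM in the controls, a rise of 0.73 (SE 0.07, adjusted p = 4.38e-07). At 7 h of H2O2 they held 120.5 and 134 CPM (log2 fold change 0.32, SE 0.07, adjusted p = 0.00096), and both 7 h groups were above both controls. The 2 h libraries, at 108 and 104 CPM under H2O2 and 108 and 112 CPM under KCl, lay at the upper end of the control range or just above it (0.05, SE 0.07, no test, and 0.10, SE 0.07, adjusted p = 0.235). Heat libraries held 163 to 173 CPM against 162 and 173 CPM in their control, and neither heat contrast passed the threshold (adjusted p = 0.863 and 0.665).

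Il6st, the shared gp130 chain and the most abundant of the 8 genes, fell at 7 h of H2O2 and rose under KCl. Control libraries held 363 and 364 CPM, 7 h H2O2 libraries 214 and 232 CPM, 2 h KCl libraries 463 and 528 CPM and 7 h KCl libraries 509 and 517 CPM. The 2 h H2O2 libraries, at 423 and 463 CPM, were also above the controls (0.29, SE 0.07, no test). It fell by 0.71 at 7 h of H2O2 (SE 0.07, adjusted p = 7.67e-07) and rose by 0.45 at 2 h (SE 0.07, adjusted p = 0.00012) and by 0.50 at 7 h of KCl (SE 0.07, adjusted p = 2.60e-05).

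Heat left Il6st within a narrow range, with 505 and 489 CPM in the control, 481 and 455 CPM at 44 °C and 447 and 459 CPM at 42 °C. At 42 °C it fell by 0.13 (SE 0.04, adjusted p = 0.0112), a call lost without the first 42 °C library (-0.11, adjusted p = 0.0919) or without the first control library (-0.11, adjusted p = 0.107). The 44 °C value was -0.09 (SE 0.04, adjusted p = 0.0732). It passed the threshold without the filter on low counts (-0.10, adjusted p = 0.0384) and without the first 44 °C library (-0.13, adjusted p = 0.0268).

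Socs3, the STAT3-induced inhibitor of gp130 signalling, was higher under heat and lower under H2O2 and KCl. Heat control libraries held 59.7 and 65.3 CPM, 44 °C libraries 91.8 and 93.5 CPM and 42 °C libraries 184 and 209 CPM. It rose by 0.57 at 44 °C (SE 0.06, adjusted p = 1.29e-06) and by 1.65 at 42 °C (SE 0.06, adjusted p = 3.82e-11), and the 42 °C libraries were above the 44 °C libraries by 1.08 (SE 0.06, adjusted p = 7.81e-10).

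In the H2O2/KCl experiment the controls of Socs3 held 42.2 and 43.7 CPM, above all 8 stressed libraries. The 2 h H2O2 libraries held 19.0 and 17.7 CPM, the 7 h H2O2 libraries 37.4 and 37.9 CPM, the 2 h KCl libraries 34.1 and 31.5 CPM and the 7 h KCl libraries 25.9 and 25.0 CPM. None of the 5 groups overlapped, in the order 2 h H2O2, 7 h KCl, 2 h KCl, 7 h H2O2 and control. Log2 fold changes were -1.23 at 2 h of H2O2 (SE 0.07, no test), -0.39 at 2 h of KCl (SE 0.07, adjusted p = 0.00029) and -0.75 at 7 h of KCl (SE 0.07, adjusted p = 3.65e-07). The fall of 0.19 at 7 h of H2O2 (SE 0.07, adjusted p = 0.0215) lost its call without the second 7 h library (-0.20, adjusted p = 0.0652) or without the second control library (-0.17, adjusted p = 0.101).

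Counted together, the 8 genes were called at about the rate of all genes in several comparisons. The counts include Il6, whose calls at 44 °C, 42 °C and 2 h of KCl, all higher, came with the filter limit given above. At 44 °C 4 of 8 were called, all higher, where 71.0% of all 12747 genes tested were called, 35.4% higher and 35.7% lower. At 42 °C 6 of 8 were called, 4 higher and 2 lower, against 63.6% of all genes, 31.7% higher and 31.9% lower. Between the heat groups 4 of 8 were called, against 75.1% of all genes.

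Under 7 h of H2O2 6 of 8 were called, 3 higher and 3 lower, against 70.5% of 13256 genes, 39.4% higher and 31.1% lower. KCl gave 6 of 8 at 2 h, 5 higher and 1 lower, against 54.2% of all genes (27.2% higher, 27.0% lower), and 6 of 8 at 7 h, 4 higher and 2 lower, against 68.8% (37.2% higher, 31.6% lower). Over the 8 genes, which went both ways, the median log2 fold change was 0.11 at 44 °C, 0.52 at 42 °C, 0.13 at 7 h of H2O2, 0.74 at 2 h of KCl and 0.61 at 7 h of KCl, where the median over all genes tested lay between -0.01 and 0.08. At 2 h of H2O2, from which nothing is read, 4 of 8 had a log2 fold change of at least 1, as 12.1% of all genes had.

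The agents were also compared with each other at 7 h, where 6 of 8 genes were called, against 78.4% of all genes. Lif was higher under H2O2 than under KCl by 5.54 (SE 0.15, adjusted p = 4.87e-13), Il11 by 1.11 (SE 0.24, adjusted p = 0.00063) and Socs3 by 0.56 (SE 0.07, adjusted p = 5.23e-06). All 3 receptor chains were lower under H2O2: Lifr by a log2 difference of -1.97 (SE 0.10, adjusted p = 1.70e-10), Il6st by -1.20 (SE 0.07, adjusted p = 1.66e-09) and Osmr by -0.41 (SE 0.07, adjusted p = 8.05e-05). Il6 and Clcf1 did not pass the threshold, at 0.02 (adjusted p = 0.981) and -0.05 (adjusted p = 0.482). At 2 h the same difference was 5.77 for Lif, 1.54 for Il6 and -0.92 for Lifr, given as a description.

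Ribosome footprints show which of this RNA was occupied by ribosomes. Footprints and RNA were each scaled within their own assay, so a rise or fall is relative to the other genes of that assay. A change of footprints or RNA shared by all genes cannot be seen in these values. Of the 8 genes 7 passed the filter on low footprint counts, and Il6, with at most 4 footprints in a library, did not. Il11 passed with 0 to 16 footprints in a library, so its values are coarse. It passed through the second library of each H2O2 group, with 16 footprints at 2 h and 12 at 7 h. The footprint and efficiency tests of Il11 are therefore no support of their own. The 2 h H2O2 footprint libraries differed in depth, 1460751 against 5168537, and the shallower held the lower Lif, Il11, Lifr, Osmr and Il6st values of the pair. In the other 4 groups replicate 1 held more Lif, Lifr, Osmr and Il6st footprint CPM than replicate 2.

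**Figure D3:**
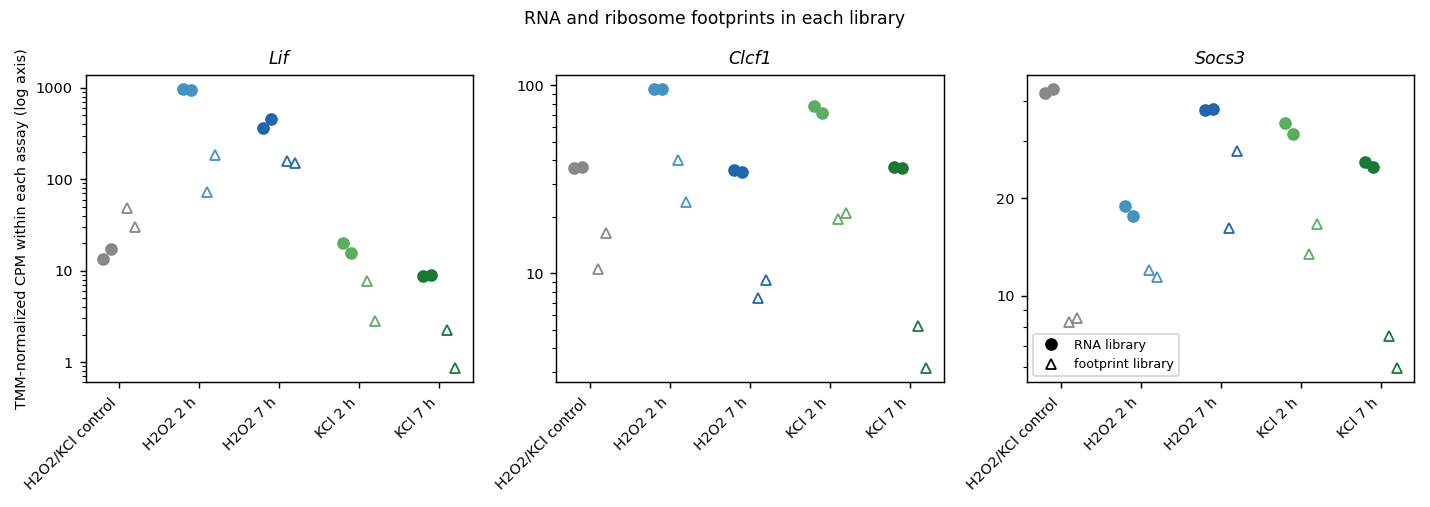
RNA (filled circles) and ribosome footprints (open triangles) of Lif, Clcf1 and Socs3 as TMM-normalized CPM within each assay (log axis), by library and group. For Lif the footprints lie above the RNA in the control (30.2 and 48.7 against 13.3 and 17.4 CPM) and below it in the 4 stressed groups.

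Lif footprints rose less than Lif RNA under H2O2 and fell under KCl. Control libraries held 48.7 and 30.2 footprint CPM, 2 h H2O2 libraries 72.0 and 183 CPM and 7 h H2O2 libraries 160.3 and 151 CPM. The KCl pairs held 7.72 and 2.78 CPM (2 h) and 2.25 and 0.851 CPM (7 h), from 23, 8, 6 and 3 footprints. H2O2 libraries were all above, and KCl libraries all below, both controls.

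The footprint log2 fold change of Lif was 1.72 at 2 h of H2O2 (SE 0.39, no test; 0.86 without the second and 2.21 without the first 2 h library) and 1.98 at 7 h of H2O2 (SE 0.39, adjusted p = 0.00215). It was -2.90 at 2 h of KCl (SE 0.51, adjusted p = 0.0052) and -4.72 at 7 h of KCl (SE 0.63, adjusted p = 0.00036). The 2 h KCl call was lost without the second 2 h KCl library (-2.35, adjusted p = 0.0602). Directly compared at 7 h, H2O2 exceeded KCl by 6.70 (SE 0.60, adjusted p = 3.30e-06).

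Set against RNA, the control held 2.56 footprint CPM per RNA CPM of Lif, while the H2O2 groups held 0.132 after 2 h and 0.376 after 7 h, and the KCl groups 0.295 and 0.175. Translational efficiency, the change of footprints beyond that of RNA, was tested as an interaction of assay and group. The fit shares 1 spread per gene over both assays, so its p-values can understate the spread of the footprints. For Socs3 at 7 h of H2O2 the SE was 0.26 in efficiency and 0.32 in footprints alone. Over all genes 584 were called at 7 h of KCl, and 234 with limma voom, which weights each assay. The efficiency of Lif fell by 2.78 on the log2 scale at 7 h of H2O2 (SE 0.44, adjusted p = 0.0010) and by 3.12 at 2 h of KCl (SE 0.58, adjusted p = 0.0017). At 2 h of H2O2 it was -4.26 (SE 0.44, no test), with -5.17 without the second and -3.81 without the first 2 h footprint library. At 7 h of KCl the value was -3.94 (SE 0.74, adjusted p = 0.0050), and it missed the threshold with limma voom (adjusted p = 0.0793) and without the second 7 h KCl footprint library (-3.31, adjusted p = 0.0702).

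Socs3 RNA was lower in each H2O2 and KCl group, while its footprints were called higher at 7 h of H2O2. Its footprints held 8.32 and 8.52 CPM in the control. Under H2O2 they held 12.01 and 11.4 CPM after 2 h, then 16.2 and 27.9 CPM after 7 h, and under KCl 13.4 and 16.7 CPM, then 7.51 and 5.96 CPM. Both H2O2 groups and 2 h of KCl were above both controls, and 7 h of KCl below them. Footprints rose by 1.39 at 7 h of H2O2 (SE 0.32, adjusted p = 0.0052), a call lost without the second 7 h library (0.90, adjusted p = 0.110), while 2 h of KCl gave 0.84 (SE 0.33, adjusted p = 0.164) and 7 h of KCl -0.33 (SE 0.36, adjusted p = 0.538).

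Socs3 held 0.196 footprint CPM per RNA CPM in the control, 0.640 and 0.587 in the 2 h and 7 h H2O2 groups, and 0.459 and 0.264 in those of KCl. Translational efficiency rose by 1.58 at 7 h of H2O2 (SE 0.26, adjusted p = 0.0012) and by 1.21 at 2 h of KCl (SE 0.28, adjusted p = 0.0083), with 1.66 at 2 h of H2O2 (SE 0.29, no test). The 2 h KCl call was lost without the second 2 h KCl footprint library (1.05, adjusted p = 0.0789). At 7 h of KCl the change was 0.44 (SE 0.33, adjusted p = 0.488).

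Clcf1 footprints were 10.5 and 16.5 CPM in the control. Under H2O2 they were 40.0 and 23.9 CPM after 2 h, then 7.40 and 9.22 CPM after 7 h, and under KCl 19.5 and 20.9 CPM, then 5.26 and 3.12 CPM. The 2 h libraries of both agents were above, and the 7 h libraries below, both controls. The fall at 7 h of KCl was 1.71 in footprints (log2 scale, SE 0.40, adjusted p = 0.0105), where the RNA contrast did not pass the threshold, and the translational efficiency was -1.68 (SE 0.37, adjusted p = 0.0127). Without the second control footprint library these were -1.35 (adjusted p = 0.0796) and -1.33 (adjusted p = 0.0744), and without the second 7 h KCl footprint library -1.35 (adjusted p = 0.115) and -1.31 (adjusted p = 0.136). The efficiency call was also lost with limma voom (adjusted p = 0.0573). The other Clcf1 footprint contrasts were 1.19 (2 h H2O2, SE 0.33, no test), -0.69 (7 h H2O2, SE 0.36, adjusted p = 0.171) and, for 2 h of KCl, 0.58 (SE 0.33, adjusted p = 0.370).

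Il11 footprints numbered 7 and 7 in the control libraries. The 2 h H2O2 pair held 0 and 16, the 7 h H2O2 pair 8 and 12, and both KCl pairs 4 and 1. No footprint contrast of Il11 passed the threshold, with adjusted p = 0.577 (7 h H2O2), 0.625 (2 h KCl) and 0.452 (7 h KCl). Its translational efficiency at 2 h of KCl was -2.97 (SE 0.93, adjusted p = 0.0432), and this call was lost in 6 of the 8 fits that left out a library, as well as with limma voom (adjusted p = 0.0876) and with a replicate block (adjusted p = 0.0580). In the 7 h groups of H2O2 and KCl the efficiency was -1.22 (SE 0.73, adjusted p = 0.338) and -1.89 (SE 0.96, adjusted p = 0.271), and at 2 h of H2O2 -2.47 (SE 0.77, no test). That last value rests on the second 2 h library, since the first held 0 footprints, and the -10.9 fitted without it is no bound.

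Of the receptor chains, Osmr gained footprints at 7 h of H2O2 and Lifr at 7 h of KCl. Osmr held 102 and 55.5 footprint CPM in the control and 199 and 179 CPM at 7 h of H2O2, a rise of 1.26 (SE 0.36, adjusted p = 0.0187). The 2 h H2O2 libraries held 36.0 and 73.3 CPM, the 2 h KCl libraries 82.9 and 50.8 CPM and the 7 h KCl libraries 128 and 74.9 CPM, all overlapping the control pair, and the KCl contrasts did not pass the threshold (adjusted p = 0.789 and 0.505). The rise at 7 h of H2O2 missed the threshold without either 7 h library (1.14, adjusted p = 0.107, and 1.29, adjusted p = 0.0712) and without the second control library (0.89, adjusted p = 0.148). Translational efficiency of Osmr at that time was 0.94 (SE 0.38, adjusted p = 0.137).

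Lifr held 43.3 and 23.1 footprint CPM in the control and 103 and 61.8 CPM at 7 h of KCl, a rise of 1.30 (SE 0.43, adjusted p = 0.0470). This call was lost without either 7 h KCl library (0.90, adjusted p = 0.293, and 1.63, adjusted p = 0.0655), without the second control library (0.93, adjusted p = 0.245) and with limma on log2(TPM + 1) (1.27, adjusted p = 0.111). At 2 h of KCl, where Lifr RNA was raised, footprints held 46.6 and 17.7 CPM, enclosing the control pair (log2 fold change -0.05, SE 0.44, adjusted p = 0.974), and the translational efficiency was -1.20 (SE 0.47, adjusted p = 0.101). That value passed the threshold without the low-count filter (-1.18, adjusted p = 0.0386), without the second control footprint library (-1.57, adjusted p = 0.0346) and without the first 2 h KCl footprint library (-2.07, adjusted p = 0.0127). H2O2 libraries held 25.3 and 48.9 CPM at 2 h and 32.2 and 22.8 CPM at 7 h.

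Il6st footprints overlapped between the control and 3 of the 4 stressed groups. They were 388 and 299.8 CPM in the control. Under H2O2 they were 311 and 468 CPM after 2 h, then 282 and 234 CPM after 7 h, and under KCl 464 and 293 CPM, then 479 and 326 CPM. No tested footprint or efficiency contrast of Il6st against control passed the threshold. The footprint log2 fold change at 7 h of H2O2, -0.41 (SE 0.27, adjusted p = 0.289), had the sign of the RNA fall.

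**Figure D4:**
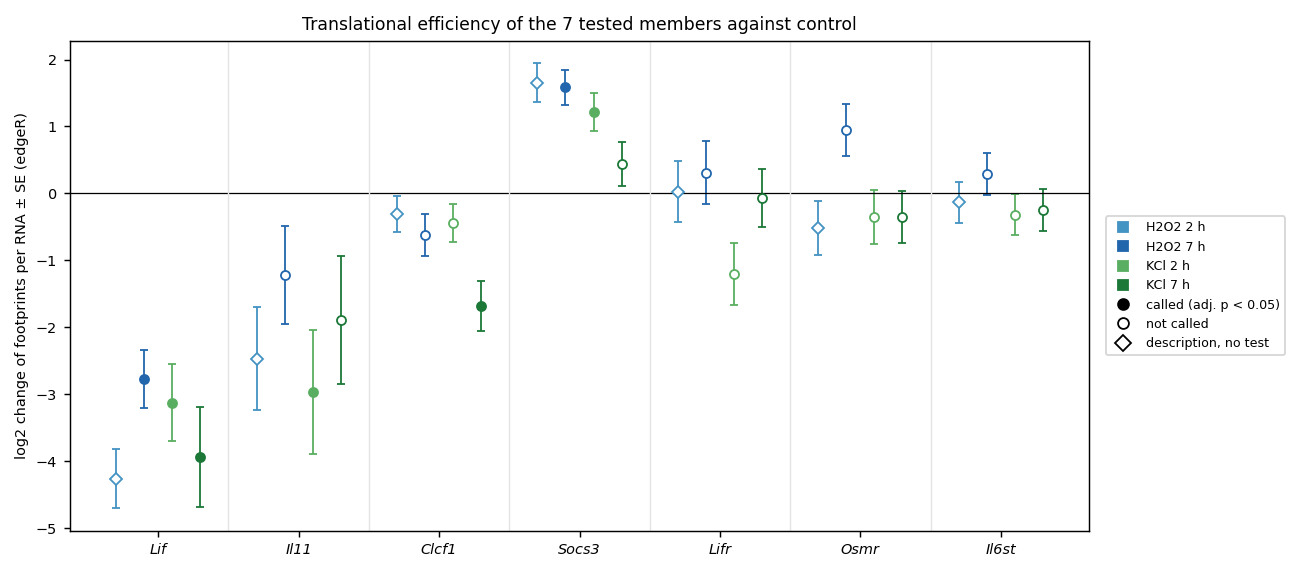
Log2 change of translational efficiency (footprints beyond RNA) with its standard error (edgeR) for the 7 genes tested, in each stress group of the H2O2/KCl experiment against the control. Filled circles passed an adjusted p of 0.05, open circles did not, and open diamonds are descriptions. Lif is at -2.78 or lower in all 4 groups and Socs3 at 0.44 or higher.

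By count, 3 of the 7 genes tested in footprints were called at 7 h of H2O2 (all higher), where 27.7% of 10545 genes were called, 1 of 7 at 2 h of KCl against 6.86%, and 3 of 7 at 7 h of KCl against 20.4%. Between 7 h and 2 h of KCl 3 of 7 differed, against 20.6% of all genes, and in RNA 6 of 8, against 68.8%. The 7 h groups of both agents differed in 3 of 7 genes, against 41.2% of all genes: Lif, Socs3, which was higher under H2O2 by 1.72 (SE 0.33, adjusted p = 0.0012), and Lifr, at -1.58 (SE 0.44, adjusted p = 0.0110). For Lifr that call was lost without the first 7 h KCl library (-1.18, adjusted p = 0.108) or the second 7 h H2O2 library (-1.40, adjusted p = 0.0895). In translational efficiency 2 of 7 were called at 7 h of H2O2 against 9.27% of 10480 genes, 3 of 7 at 2 h of KCl against 12.8%, and 2 of 7 at 7 h of KCl against 5.57%. Those 7 are the members that passed the filter, Il6 being the one that did not. The 3 efficiency calls at 2 h of KCl include Il11, with the filter limit given above. None of these shares carries weight as support, since the members were chosen with results known.

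The other genes of the pathway were taken from 5 lists of 48 genes, chosen with earlier results of these data known. Of the 7 other ligands, 3 passed the RNA filter, Ctf1 and Cntf among them. Osm, the ligand of Osmr, reached at most 0.28 TPM in any library, and Ctf2 was at 0 in all 16. Cntf, the ciliary neurotrophic factor, rose at 2 h of KCl from 2.01 and 2.52 CPM to 15.02 and 15.9 CPM (log2 fold change 2.78, SE 0.12, adjusted p = 4.71e-10), and at 42 °C from 1.68 and 2.02 CPM to 8.38 and 8.50 CPM (2.18, SE 0.14, adjusted p = 1.04e-08). Further calls were higher too: 1.30 (44 °C), 0.79 (2 h H2O2) and 1.10 (7 h KCl), while the 7 h H2O2 value of -0.24 was not called (adjusted p = 0.198). Ctf1, cardiotrophin 1, was called lower at 7 h of H2O2, with a log2 fold change of -0.72 (SE 0.18, adjusted p = 0.0022).

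Of the 6 other receptor genes, 3 passed the filter: Il6ra, Il11ra1 and Il27ra. Cntfr, a chain of the CNTF receptor named above with Clcf1, reached at most 0.28 TPM in any library. Il11ra1, the chain specific for Il11, was called lower in all 6 groups, from 38.6 and 42.8 CPM in the H2O2/KCl control to 15.9 and 17.2 CPM at 7 h of KCl (log2 fold change -1.30, SE 0.09, adjusted p = 1.71e-08). Il6ra, the chain specific for Il6, rose at 7 h of H2O2 from 26.4 and 28.4 CPM to 45.2 and 48.9 CPM (0.78, SE 0.08, adjusted p = 7.05e-07). Its footprints rose more (2.29, SE 0.32, adjusted p = 0.00019), and its translational efficiency rose by 1.505 (SE 0.28, adjusted p = 0.0027). Il6ra RNA was called lower in the 2 h groups of H2O2 and KCl, with log2 fold changes of -0.41 and -0.62. At 44 °C for 2 h it was called higher (0.17, SE 0.07, adjusted p = 0.046). At 42 °C it held 12.8 and 14.5 CPM, below the 19.1 and 19.3 CPM of the heat control.

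Signalling genes, the kinases and STATs, were all 9 detected, and 4 to 8 of them were called in each group, where 53.9% to 71.0% of all genes were. At 7 h of H2O2 they went both ways: 4 were called higher and 4 lower, against 39.4% and 31.1% of all genes. In that group 2 had a log2 fold change of 1 or more and 2 of -1 or less. Stat3, named for its place in the pathway and not for its values, fell at 7 h of H2O2 from 190 and 200.1 CPM to 77.1 and 80.4 CPM (log2 fold change -1.31, SE 0.07, adjusted p = 3.08e-10), with footprints at -0.76 (SE 0.19, adjusted p = 0.0107). Stat5a fell by 1.41 on the log2 scale at 7 h of H2O2 (SE 0.07).

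Of the 11 other inhibitors, all passed the RNA filter. Heat gave 5 higher and 3 lower (44 °C), then 8 and 3 (42 °C). H2O2 gave 5 and 4 after 2 h, then 9 and 0 after 7 h, and KCl gave 4 and 3, then 5 and 3. Among all genes 35.4% were called higher and 35.7% lower at 44 °C, and 31.7% and 31.9% at 42 °C. Under KCl these shares were 27.2% and 27.0% at 2 h, and 37.2% and 31.6% at 7 h. Under H2O2 they were 27.3% and 26.5% at 2 h, and 39.4% and 31.1% at 7 h. At 7 h of H2O2 the list's median log2 fold change was 0.41 and that of all genes 0.08. The largest rise in that group was that of Cish, a SOCS family inhibitor, from 3.87 and 4.69 CPM to 12.7 and 13.8 CPM (1.64, SE 0.14, adjusted p = 8.42e-08). Cish was lower at 2 h of KCl (log2 fold change -1.65, SE 0.20, adjusted p = 9.68e-06). Socs1 had the largest fall at 7 h of KCl, -1.31 (SE 0.19, adjusted p = 2.47e-05), and Socs7 the largest rise at 44 °C, 1.09 (SE 0.04).

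**Figure D5:**
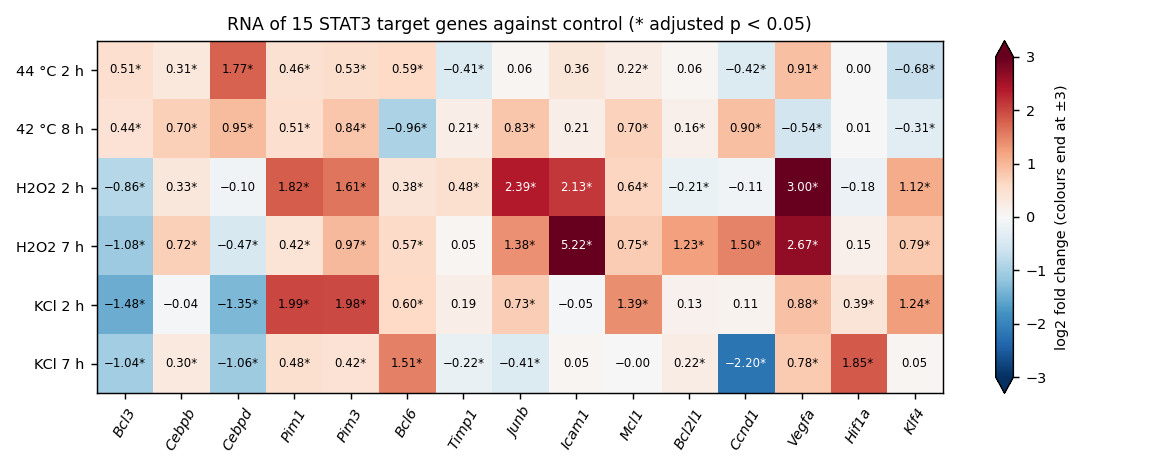
Log2 fold change of RNA (edgeR) for 15 STAT3 target genes in the 6 stress groups against the control of each experiment. Colours end at ±3, and stars mark an adjusted p below 0.05. Icam1 reaches 5.22 at 7 h of H2O2 and Ccnd1 falls to -2.20 at 7 h of KCl.

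STAT3 target genes, 15 in the list and all tested, had called members in both directions in each group. Heat gave 8 higher and 3 lower (44 °C), then 10 and 3 (42 °C). H2O2 gave 10 higher and 2 lower after 2 h, then 11 and 2 after 7 h, and KCl gave 8 and 2, then 7 and 5. Over all genes 53.9% were called at 2 h of H2O2, 27.3% higher and 26.5% lower. At 7 h of H2O2 39.4% were higher and 31.1% lower. Under KCl the shares were 27.2% and 27.0% at 2 h, and 37.2% and 31.6% at 7 h. Under heat they were 35.4% and 35.7% at 44 °C, and 31.7% and 31.9% at 42 °C. Many of these genes answer to other factors too, so the list is no readout of STAT3 alone. Icam1, an adhesion molecule also controlled by NF-kB, rose from 1.23 and 1.24 CPM to 45.1 and 47.1 CPM at 7 h of H2O2 (log2 fold change 5.22, SE 0.12, adjusted p = 1.29e-13), with footprints at 5.74 (SE 0.51, adjusted p = 4.46e-06). Vegfa, the vascular growth factor, was highest at 2 h of H2O2, with 307 and 316 CPM against 38.4 and 39.6 CPM (log2 fold change 2.998, SE 0.07, adjusted p = 1.76e-12).

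The translational efficiency of Vegfa was called lower in all 4 groups. Under H2O2 it was -1.16 after 2 h (SE 0.34, adjusted p = 0.0335) and -1.47 after 7 h (SE 0.34, adjusted p = 0.0118). Under KCl it was -1.42 after 2 h (SE 0.36, adjusted p = 0.0155) and -1.44 after 7 h (SE 0.37, adjusted p = 0.0302). These 4 contrasts share their control libraries, so the calls are not independent. Whether the Vegfa calls hold when a library is left out is not given here. Pim1, a survival kinase, rose at 2 h of KCl from 27.4 and 30.5 CPM to 114 and 116 CPM (1.99, SE 0.09), and Hif1a at 7 h of KCl from 175 and 184 CPM to 624 and 673 CPM (1.85, SE 0.08). Bcl3 was called lower in all 4 H2O2 and KCl groups, with the largest fall at 2 h of KCl (-1.48, SE 0.09, adjusted p = 8.31e-09). Cebpd rose most at 44 °C (1.77, SE 0.08) and was called lower in the 7 h H2O2 group and both KCl groups.

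Genes with the most similar RNA pattern were found by Pearson's r of log2 CPM, after subtracting the control mean of each experiment, over the 16 RNA libraries and 10611 genes. These libraries fall into groups and share controls, so r is a description. For Lif they were Gadd45a (r = 0.989), Gtpbp4 and Irf5 (both 0.964), and its r rests on the 4 H2O2 libraries. Il11 was nearest to Ppp1r15a (0.953), Clcf1 to Rnf225 (0.975), Socs3 to Mlf2 (0.968), Lifr to Ppp6r3 (0.984), Osmr to Tmem165 (0.969), Il6st to Hspa13 (0.983) and Il6 to Krr1 (0.910).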

How the data were processed

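Expected counts and TPM per gene were deposited by the authors. The submitters' processing notes name STAR, RSEM, Bowtie and the build mm10, with no roles given. True or false calls of readthrough past gene ends (DoG) and of read-in, were also deposited by the authors for neighbouring gene pairs, with a read-in estimate used here as a score, since its formula is not stated in the sources. A further 12 footprint columns of the tables matched no sample label and were not used here.

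The members and lists were chosen with earlier results of these data known: all 8 members are named, and of each list the counts and the largest called rise and fall in RNA, plus the genes with the most similar RNA pattern. Values of 2 list genes that this rule names are not reported here. Expected counts were rounded and tested with the quasi-likelihood test of edgeR 4.0.16 (R 4.3.3; TMM, filterByExpr, Benjamini-Hochberg over all genes tested, threshold 0.05), in separate fits for RNA of heat (6 libraries, 12747 genes), RNA of H2O2/KCl (10 libraries, 13256 genes), footprints (10 libraries, 10545 genes) and translational efficiency (20 libraries, 10480 genes, interaction term). SE is that of the log2 fold change. Alternatives were no filter, DESeq2 size factors, DESeq2 1.42.0, limma 3.58.1 on log2(TPM + 1) or voom, a replicate block, fitting the compared groups alone and leaving out each library. The fits were tested on simulated counts, drawn with the same spread for RNA and footprints and with changes only in well-counted genes. This does not cover sparse or noisier footprints. Motifs were searched in RefSeq promoters of GRCm38.p6, the 250 bases before each start.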

Additional observations from a re-analysis of the deposited data

Results flagged for a closer look

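The 2 times of KCl differed for 6 of the 8 genes in RNA, where 68.8% of all genes differed, and for 3 of 7 in footprints, where 20.6% did, by the edgeR test of 7 h against 2 h. In RNA the log2 differences (7 h minus 2 h) were -1.03 for Clcf1 (adjusted p = 4.62e-09), -1.11 for Il11 (adjusted p = 0.00096), -0.9989 for Lif (adjusted p = 8.31e-05), 0.23 for Lifr (adjusted p = 0.0325), 0.62 for Osmr (adjusted p = 2.16e-06) and -0.37 for Socs3 (adjusted p = 0.00050). The Lifr difference was lost without the first 2 h library (0.15) or the second 7 h library (0.08). It also missed the threshold with limma on log2(TPM + 1) (0.18, adjusted p = 0.227) and in the edgeR fit of only the compared groups (0.21, adjusted p = 0.0707). In footprints they were -2.29 for Clcf1 (adjusted p = 0.0023), 1.35 for Lifr (adjusted p = 0.0437) and -1.17 for Socs3 (adjusted p = 0.0314). The Socs3 call was lost without any of the 4 libraries compared (adjusted p = 0.0569 to 0.172). That of Lifr was lost without the second 2 h library (0.82) or without either 7 h library (0.94 and 1.68). With limma on log2(TPM + 1) Lifr missed the threshold too (1.57, adjusted p = 0.0563).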

How the results depend on the processing

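Of 1671 log2 values of the 8 genes under alternatives, 1488 kept their direction and side of the threshold (for untested values, moved by less than 1 SE), 60 lost a call, 21 gained one, 43 tested values changed sign and 59 untested values moved by more. Of the 60 lost calls 45 came from leaving out a library. Depth limits the footprint and efficiency values of Il6 and Il11 most, with at most 4 and 16 footprints in a library. The cause of the changes below was not tested. The number of genes called between the heat groups was 7 with limma on log2(TPM + 1) against 4, where that scale moved the median of all genes by -0.20, and it moved it by -0.16 for 42 °C, 0.11 for footprints of 7 h H2O2 and 0.18 for footprints between the 7 h groups. With limma 1 gene, against 2, differed by at least 1 (log2) between the 2 h groups. Between the 7 h groups 5 genes were called in footprints, against 3, without the low-count filter and likewise when fitting only those groups, with Osmr and Il6st added. In translational efficiency 0 genes were called at 7 h of KCl with limma voom, against 2 with edgeR (Lif and Clcf1). Leaving out 1 library, footprint counts of genes ranged from 1 to 3 for 2 h H2O2, from 1 to 3 for 7 h H2O2, from 0 to 1 for 2 h KCl, from 1 to 3 for 7 h KCl and from 1 to 2 between KCl times. Efficiency counts ranged from 1 to 4 for 2 h KCl and from 0 to 2 for 7 h KCl.

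No called value changed sign. Uncalled values that did so with another tool were, at 44 °C, Lif (0.024) and Il11 (0.047) with limma and Osmr (-0.0026) without the filter. Between the 7 h groups Il6 RNA was -0.0030 with DESeq2 size factors, -0.010 with DESeq2 and -0.013 with limma, and Il11 footprints between KCl times were 0.20 with limma. When libraries were left out, tested RNA values spanned 0 for 44 °C in Lif (-0.19 to 0.15), Il11 (-0.20 to 0.12) and Osmr (-0.042 to 0.057), for 42 °C in Il11 (-0.28 to 0.027) and Osmr (-0.072 to 0.033), between heat groups in Osmr (-0.065 to 0.0013), for 7 h KCl in Clcf1 (-0.023 to 0.0019), between KCl times in Il6 (-1.22 to 0.92) and Il6st (-0.040 to 0.15), and between 7 h groups in Il6 (-0.14 to 0.16). Footprint values did so for 7 h H2O2 in Lifr (-0.66 to 0.21), for 2 h KCl in Lifr (-0.91 to 0.53), Osmr (-0.63 to 0.32) and Il6st (-0.23 to 0.43), for 7 h KCl in Osmr (-0.072 to 0.87) and Il6st (-0.073 to 0.48), and between KCl times in Il11 (-1.47 to 1.16) and Il6st (-0.21 to 0.46). Efficiency values did so for 7 h H2O2 in Lifr (-0.041 to 0.84), for 2 h KCl in Osmr (-0.75 to 0.16), and for 7 h KCl in Lifr (-0.46 to 0.46), Osmr (-0.77 to 0.16) and Il6st (-0.54 to 0.0079). Untested 2 h H2O2 values against control also spanned 0: RNA of Osmr (-0.041 to 0.128), footprints of Lifr (-0.40 to 0.75), Osmr (-1.14 to 0.030), Il6st (down to -0.16) and Il11 (down to a fitted -5.54 from 0 footprints), and efficiency of Clcf1 (-0.62 to 0.14), Lifr (-0.68 to 0.57), Osmr (-1.24 to 0.0075) and Il6st (from -0.49).

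Replicate numbers were not taken to pair the libraries, since not every pair of groups had same-numbered deviations correlated over 0.1. The correlations were -0.02 to 0.12 in heat RNA (1 of 3 over 0.1), -0.05 to 0.05 in H2O2/KCl RNA (0 of 10) and -0.38 to 0.42 in footprints (6 of 10). In footprints, replicate 1 also held more Lif, Lifr, Osmr and Il6st CPM than replicate 2 in every group but 2 h H2O2. The main footprint and efficiency fits did not model such a difference between replicate numbers. With a replicate block 156 of 158 values kept their call. Il11 efficiency at 2 h of KCl missed it (-2.96, adjusted p = 0.0580), and Osmr footprints between the 7 h groups passed it (0.93, adjusted p = 0.0438).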

Other observations

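In the authors' deposited tables of readthrough between neighbouring genes, 4 of the 6399 pairs hold 1 of the 8 genes, and 0 read-in calls were made for them in the 16 RNA libraries. A DoG call, transcription that runs past the end of the upstream gene, was made for Il6st, upstream of Slc38a9, in 16 of 16 libraries, as for 277 pairs (4.33%), with a read-in estimate of 0 throughout. For Tmem238, upstream of Il11, a DoG was called in 10 of 16 libraries, with read-in estimates of 0.225 to 1.32 (median 0.474). Of all finite estimates in the tables, 8.06% were at or above 0.225, the lowest of these. In the H2O2/KCl experiment its estimates were 1.025 and 0.971 in the control and 1.02 and 0.922 in the 2 h KCl group. They were lower in the other groups of that experiment: 0.431 and 0.338 (2 h H2O2), 0.453 and 0.380 (7 h H2O2), and 0.461 and 0.423 (7 h KCl). Il11 held 19 to 169 expected counts in these RNA libraries. Whether transcripts from Tmem238 weigh on the Il11 values given above was not tested. Dnajb6, upstream of Il6, had a DoG call in 2 of 16 libraries and Il11, upstream of Fam71e2, in 1 of 16.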
